A study of Mus musculus with 6 samples.

Results

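The genes described here are 8 negative regulators of the circadian clock: the Period genes Per1, Per2 and Per3, the Cryptochrome genes Cry1 and Cry2, the basic helix-loop-helix repressor genes Bhlhe40 and Bhlhe41, and Ciart, which encodes the repressor CHRONO. They were picked by symbol out of 22667 genes listed per library. All 8 were found by their Ensembl identifier and all 8 passed the filter on low counts. RNA was sequenced from hippocampal neurons of C57bl/6 mouse embryos (E16.5) that had spent 10 days in culture. Neurons were left without KCl (untreated) or were kept in 55 mM KCl for 0.5 h or 3 h, which depolarises them. There are 3 groups with 2 libraries apiece (6 altogether), numbered replicate 1 and 2. The labels name them biological duplicates but not what was separate between them, so a p-value here reflects the spread of these libraries alone. Neither the hour of day at harvest nor the harvest time of untreated relative to KCl neurons is known here.

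In the mammalian clock, the activators CLOCK (or NPAS2) and BMAL1 bind E-box sequences and switch on the Period and Cryptochrome genes. PER and CRY proteins then enter the nucleus as a complex and repress their own activators. The proteins made from Bhlhe40, Bhlhe41 and Ciart act on the same step, the helix-loop-helix pair by binding E-boxes and CHRONO by binding BMAL1. Per1 and Per2 also respond to light and to calcium signals in neurons, through CREB and the cAMP response element (CRE).

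Sequences upstream of the transcription start are shown for 4 members that had different courses: Per1 and Cry1, which rose at 3 h, Per3, which had lower values at 3 h, and Ciart, which had no common direction. They are from RefSeq, build GRCm38.p6, and cover the 250 bases before a listed start, 5′ to 3′ on the strand of the gene. In the GENCODE M21 annotation some of these bases are the gene's own exon: 10 for Cry1, 23 for Ciart and 1 in the first Per1 window. The short CRE motif of Cry1 lies in such exon bases. Both Per1 windows lie within the annotated span of the gene. Capitals mark an E-box (CACGTG), a D-box (TTATGTAA, the site of the DBP, TEF and HLF factors and of their antagonist NFIL3) or the short CRE motif (TGACG), searched on both strands. Per1 has a pair of listed starts, both given.
Per1, first start, plus strand, chr11:69098699-69098948: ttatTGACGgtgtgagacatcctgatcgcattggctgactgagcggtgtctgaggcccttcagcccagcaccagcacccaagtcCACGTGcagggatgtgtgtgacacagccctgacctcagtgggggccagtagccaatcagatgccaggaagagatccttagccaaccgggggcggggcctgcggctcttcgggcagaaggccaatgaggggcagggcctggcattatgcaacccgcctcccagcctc
Per1, downstream start, plus strand, chr11:69099902-69100151: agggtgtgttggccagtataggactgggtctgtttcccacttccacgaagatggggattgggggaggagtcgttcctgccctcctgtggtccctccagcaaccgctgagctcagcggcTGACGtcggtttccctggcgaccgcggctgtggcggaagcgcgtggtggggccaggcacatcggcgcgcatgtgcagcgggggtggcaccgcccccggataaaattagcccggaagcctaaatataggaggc
Cry1, minus strand, chr10:85185055-85185304: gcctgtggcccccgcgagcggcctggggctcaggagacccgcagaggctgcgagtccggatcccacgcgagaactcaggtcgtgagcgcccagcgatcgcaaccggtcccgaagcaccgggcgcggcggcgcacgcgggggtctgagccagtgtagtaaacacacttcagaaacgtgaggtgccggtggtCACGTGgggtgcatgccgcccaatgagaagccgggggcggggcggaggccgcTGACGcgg
Per3, minus strand, chr4:151044666-151044915: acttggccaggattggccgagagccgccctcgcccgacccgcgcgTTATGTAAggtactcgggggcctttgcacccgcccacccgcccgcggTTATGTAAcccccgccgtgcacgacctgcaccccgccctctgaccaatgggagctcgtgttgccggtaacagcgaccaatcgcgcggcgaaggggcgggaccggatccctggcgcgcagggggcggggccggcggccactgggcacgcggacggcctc
Ciart, minus strand, chr3:95882229-95882478: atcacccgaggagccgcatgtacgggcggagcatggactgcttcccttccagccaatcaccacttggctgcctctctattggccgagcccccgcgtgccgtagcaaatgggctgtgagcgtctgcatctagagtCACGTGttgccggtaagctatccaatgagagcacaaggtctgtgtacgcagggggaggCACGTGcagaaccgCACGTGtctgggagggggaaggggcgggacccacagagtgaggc

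Of the 8 members, 6 had a sequence in the RefSeq table, and Per2 and Bhlhe40 are named only. Ciart held 3 E-boxes, whose first bases lie 116, 58 and 44 bases before the start. Per3 held 2 D-boxes, starting 205 and 158 bases before the start, and no E-box. Cry1 held an E-box 60 bases before the start and the first Per1 window one at 166. Bhlhe41 held an E-box at 153 bases, and Cry2 only the short CRE motif, on the opposite strand. In the Bhlhe41 window 138 bases are annotated as its own exon. The full CRE (TGACGTCA) and the CArG box, where serum response factor binds, were in none of the 7 windows of these 6 genes. Over 32851 windows of the same length in the table, 6.02% held the E-box, 0.819% the D-box, 17.8% the short CRE motif, 1.55% the full CRE and 1.47% the CArG box. A match in letters is a description of the sequence and no evidence of binding.

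**Figure D1:**
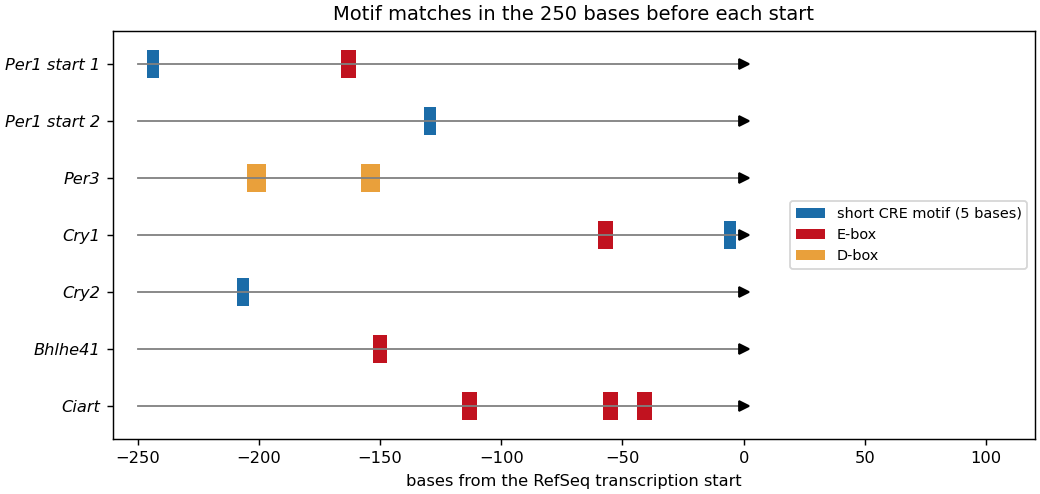
Position of motif matches in the 250 bases before each RefSeq start (x axis, bases from the start; arrowheads mark the start) for the 7 windows of 6 members. Ciart shows 3 E-boxes and Per3 shows 2 D-boxes, while the short CRE motif is in both Per1 windows and in those of Cry1 and Cry2.

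Total counts ran from 98882007 to 141865913 per library. The depolarisation was visible in the RNA: Fos, an immediate early gene, stood at 7.98 and 8.14 cRPKM in untreated libraries, 237 and 223 at 0.5 h, and 344 and 271 at 3 h. The cRPKM is the authors' read count scaled for gene length and library size, and it allows levels of different genes to be compared. Neuronal markers were strong, with 1080 to 1260 cRPKM summed over 5 pan-neuronal genes in untreated and 0.5 h libraries and 867 and 688 at 3 h. The cultures were mixed: 5 astrocyte markers summed to 491 to 1242 cRPKM and 5 oligodendrocyte lineage markers to 184 to 297. Microglia markers (5 genes) summed to 0.8 to 1.2 cRPKM and endothelial markers (3 genes) to 0.29 to 0.42, with none at 1 cRPKM in any library. The replicate numbers also differed in makeup. The 3 choroid plexus markers summed to 139 to 232 cRPKM in the replicate 2 libraries and 1.86 to 2.03 in the replicate 1 libraries, nearly all of it Ttr. Folr1 was at 2.68 to 2.89 against 1.64 to 1.77, and Kl, at 0.07 to 0.22, was not higher in replicate 2. The choroid plexus gene Ttr was at 136, 189 and 229 cRPKM in the replicate 2 libraries and at 0.04 to 0.13 in the replicate 1 libraries, and the astrocyte gene Gfap at 307 to 475 against 22.4 to 24.6. The other 4 astrocyte markers differed less in untreated libraries, as Slc1a3 did at 390 and 398. In such bulk samples, fewer cells of a type and less RNA per cell cannot be told apart.

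In untreated neurons the members spanned about an order of magnitude. Cry2 was the most abundant, at 33.4 ± 3.4 cRPKM (SD, n = 2), above 84.1% of the 15895 genes tested, whose median was 7.8 cRPKM. Per1 followed at 13.8 ± 1.7, then Bhlhe40 at 9.82 ± 2.2, Cry1 at 7.42 ± 0.51 and Per2 at 4.93 ± 0.40. Per3 (3.70 ± 0.91), Ciart (3.46 ± 0.16) and Bhlhe41 (3.21 ± 0.32) came last, and the libraries of these 3 genes overlapped, so their order is not resolved. At 3 h Cry2 (52.6 ± 14) and Per1 (46.3 ± 6.7) overlapped at the top. Cry1 (15.2 ± 1.6) and Per2 (11.3 ± 2.4) had passed Bhlhe40 (7.98 ± 1.4). Ciart (3.27 ± 1.4), Per3 (2.23 ± 0.94) and Bhlhe41 (2.15 ± 0.11) had the lowest means. The Per3 libraries overlapped those of Ciart and of Bhlhe41, so the place of Per3 among them is not resolved.

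**Figure D2:**
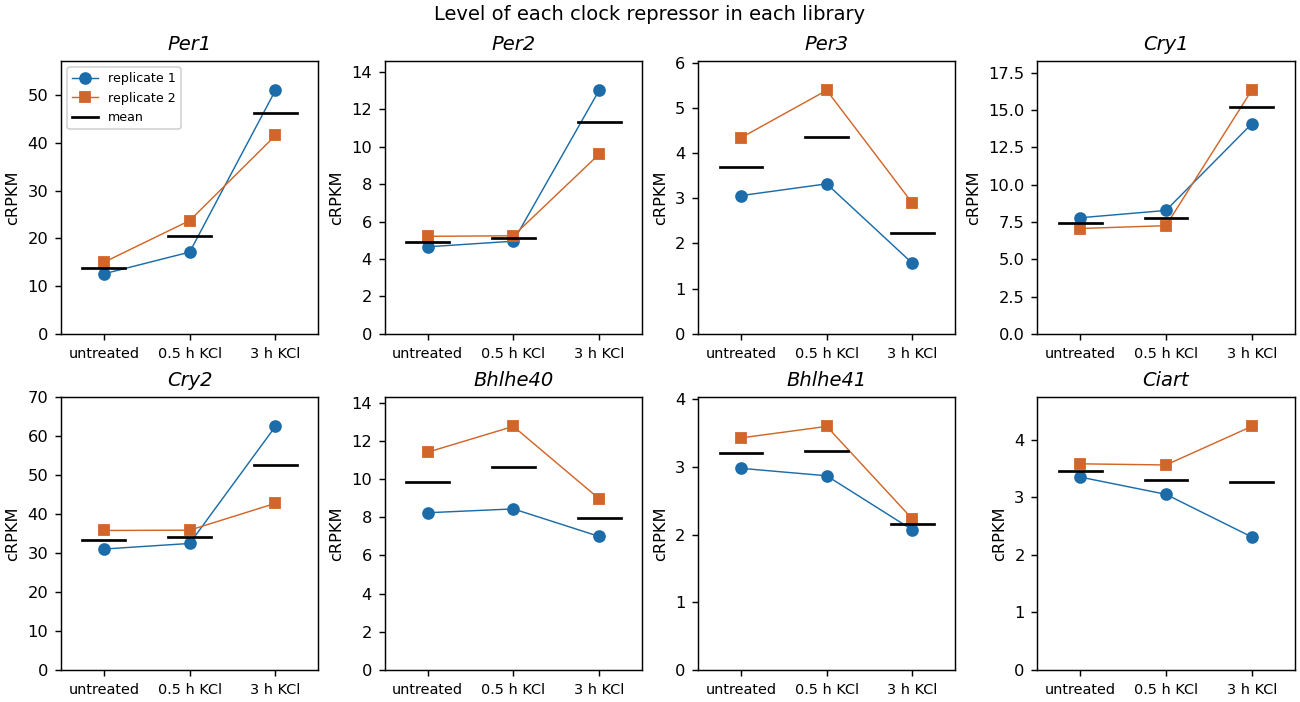
Level of each clock repressor (y axis, cRPKM, starting at 0) in the untreated, 0.5 h and 3 h libraries; circles and squares are replicates 1 and 2, thin lines join libraries with the same number, and black bars are group means. Per1, Per2, Cry1 and Cry2 are highest at 3 h in both replicates, Per3, Bhlhe40 and Bhlhe41 are lowest there in both, and the Ciart libraries part in opposite directions.

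Per1, Per2 and Cry1 rose after 3 h of KCl, by 3.50-fold, 2.40-fold and 2.12-fold, and were the members that passed the test against untreated neurons. The test was edgeR's quasi-likelihood test on the counts, with Benjamini-Hochberg adjustment over all genes and a threshold of 0.05. With that rule 3 of 8 members were higher and 0 lower, while 8.71% of all genes tested were called higher and 6.84% lower. Without adjustment, at p under 0.05, edgeR had 4 members higher and 1 lower, beside 17.8% and 16.6% of all genes. Both 3 h libraries lay above both untreated ones for 4 members (24.1% of all genes) and below them for 2 members (35.9% of all genes). The median log2 change was 0.34 over the 8 members and −0.02 over all genes. With replicate number as a block, 3 members were higher and 2 lower, beside 18.6% of all genes in each direction. DESeq2 without the block called 4 members higher and 1 lower, beside 2259 and 1877 of 19488 genes. The astrocyte markers were also higher at 3 h, in both replicates and for 5 of 5 genes: they summed to 552 and 1242 cRPKM against 491 and 796 in untreated libraries. Their part in the rises of Per1, Per2 and Cry1 was not tested.

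Per1 is known as a gene that light induces rapidly in the neurons of the brain's central clock. It is ENSMUSG00000020893, on chromosome 11 (69095217 to 69109960, GRCm38). Its level was 12.6 and 15.01 cRPKM in untreated libraries, 17.1 and 23.7 at 0.5 h, and 51.0 and 41.6 at 3 h. The groups did not overlap at any step, and the 3 h libraries were the highest. The log2 change at 3 h was 1.81 ± 0.20 (SE; adjusted p = 0.009, edgeR), and between same-numbered libraries the level was 4.06-fold higher in replicate 1 and 2.77-fold in replicate 2. Without untreated replicate 1 or 2, which leaves 1 library in that group, the change was 1.69 or 1.93. The call was lost in both, as were most calls over all genes.

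At 0.5 h Per1 was the member with the largest difference, 1.36-fold and 1.58-fold in the same-numbered libraries. Its log2 difference was 0.54 ± 0.20, with an unadjusted p of 0.037 and an adjusted p of 1 in edgeR. Of the 8 members 0 were called at 0.5 h by edgeR, with or without the block, by DESeq2 or by limma. Few genes were called at all: 0.0377% of those tested were higher and 0 lower in edgeR, and 0.0818% higher and 0 lower with the block. Per1 was the 1 member with an unadjusted p under 0.05 in edgeR (beside 0.629% of all genes higher and 0.176% lower). The count was also 1 in DESeq2, beside 93 genes higher and 20 lower of 19488. In limma the count was 1 as well, beside 107 and 29 of 15895 genes on log2(cRPKM + 0.1) and 109 and 38 on log2(cRPKM + 1). It was 0 without untreated replicate 1 (log2 difference of Per1 0.43) and without 0.5 h replicate 2 (0.31). Both 0.5 h libraries of Per1 lay above both untreated ones, as for 14.8% of all genes tested. The other 7 members overlapped between untreated and 0.5 h, and none lay below, as 6.38% of all genes did.

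Per2 encodes the PER protein that is indispensable for a sustained mouse rhythm. It is ENSMUSG00000055866, on chromosome 1 (91415982 to 91459324, GRCm38). It stood at 4.65 and 5.21 cRPKM in untreated libraries, 4.95 and 5.24 at 0.5 h, and 13.0 and 9.60 at 3 h. Untreated and 0.5 h values were interleaved, and both 3 h libraries were above all 4 of the others. The log2 change at 3 h was 1.26 ± 0.18 (adjusted p = 0.013, edgeR). At 0.5 h it was 0.03 ± 0.18, with a 95% interval of 0.75-fold to 1.38-fold, so a rise of the size seen at 3 h lay outside the interval. Without untreated replicate 1 or 2 the 3 h change was 1.19 or 1.33, and the call was lost, as were most calls over all genes.

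Per3, the PER protein gene whose loss leaves the mouse rhythm largely intact, went the other way. It is ENSMUSG00000028957, on chromosome 4 (151003652 to 151044665, GRCm38). Its level was 3.06 and 4.34 cRPKM in untreated libraries, 3.32 and 5.39 at 0.5 h, and 1.56 and 2.89 at 3 h. Replicate 2 was above replicate 1 in every group, and within each number the 3 h library was the lowest. At 3 h the level was 0.510 and 0.666 of the same-numbered untreated level. The log2 difference was −0.69 ± 0.35 in the fit by group (adjusted p = 0.22, edgeR) and −0.73 ± 0.10 with the replicate block (adjusted p = 0.0084). The block changed the size little and reduced the standard error. Without 3 h replicate 1 the difference by group was −0.35, and without 3 h replicate 2 it was −1.14, neither called (adjusted p = 0.51 and 0.13). The replicate 2 libraries also carried the Ttr and Gfap signal given above. Their summed interneuron markers were higher as well, at 207, 189 and 127 cRPKM against 99.1, 95.2 and 79.7 in replicate 1 (untreated, 0.5 h, 3 h). The pan-neuronal and oligodendrocyte lineage sums were lower in replicate 2 in every group. The part of these differences in the Per3 levels was not tested.

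Cry1 and Cry2 encode the strongest repressors of the loop. Cry1 is ENSMUSG00000020038, on chromosome 10 (85131700 to 85185064), and Cry2 is ENSMUSG00000068742, on chromosome 2 (92403646 to 92434043, GRCm38). Cry1 stood at 7.78 and 7.06 cRPKM in untreated libraries, 8.27 and 7.25 at 0.5 h, and 14.1 and 16.3 at 3 h. Both 3 h libraries were well above the other 4, which lay close together. Cry1 rose by 1.09 ± 0.12 on the log2 scale at 3 h (adjusted p = 0.0088, edgeR). Its value at 0.5 h was 0.04 ± 0.12, with a 95% interval of 0.84-fold to 1.27-fold. Without untreated replicate 1 or 2 the 3 h change was 1.17 or 1.00, and the call was lost, as were most calls over all genes.

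Cry2 had 31.0 and 35.8 cRPKM in untreated libraries, 32.5 and 35.9 at 0.5 h, and 62.5 and 42.8 at 3 h. Both 3 h libraries were above the rest, but they differed from each other: the level was 2.01-fold the same-numbered untreated level in replicate 1 and 1.19-fold in replicate 2. The log2 difference at 3 h was 0.72 ± 0.21 and did not pass (adjusted p = 0.075, edgeR; 0.0089 in DESeq2). Without 3 h replicate 2 it was 1.02 (adjusted p = 0.019), and without 3 h replicate 1 it was 0.37 (adjusted p = 0.087). The kit does not mark the strand, and the annotation places a noncoding transcript opposite an exon of Cry2, so reads within that overlap, at most 149 bases of exon, cannot be told apart. The same holds for at most 118 exon bases of Bhlhe40 and 510 of Bhlhe41.

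Bhlhe40 and Bhlhe41 (also called DEC1 and DEC2) did not follow the Period and Cryptochrome risers. Bhlhe40 is ENSMUSG00000030103 and Bhlhe41 ENSMUSG00000030256, both on chromosome 6 (108660629 to 108666925 and 145858243 to 145865558, GRCm38). Bhlhe40 stood at 8.23 and 11.4 cRPKM in untreated libraries, 8.43 and 12.8 at 0.5 h, and 6.99 and 8.96 at 3 h. All 3 groups overlapped, and the replicate 2 library was the higher in each. Between same-numbered libraries the 3 h level was the lower in both, at 0.849 and 0.786 of untreated and 0.829 and 0.703 of 0.5 h. Its log2 difference at 3 h was −0.25 ± 0.24 (adjusted p = 0.51, edgeR; 0.099 with the block). The 95% interval ran from 0.56-fold to 1.27-fold, so the rises of Per1, Per2 and Cry1 lay outside it.

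Bhlhe41 stood at 2.98 and 3.43 cRPKM in untreated libraries, 2.87 and 3.60 at 0.5 h, and 2.07 and 2.23 at 3 h. Both 3 h libraries were below the other 4. The log2 difference at 3 h was −0.52 ± 0.14 (adjusted p = 0.055, edgeR). With the replicate block it was −0.52 ± 0.09 and was called (adjusted p = 0.015), and DESeq2 without the block also called it (adjusted p = 0.008). The summed pan-neuronal markers were lower at 3 h as well (867 and 688 against 1260 and 1177 cRPKM), and their part in the Bhlhe41 and Per3 levels was not tested. Most of that sum's difference was Tubb3, at 607 and 453 cRPKM in untreated libraries and 253 and 158 at 3 h. Syt1, Map2 and Rbfox3 were also lower at 3 h in both replicates, and Snap25 (260 and 293, then 265 and 224) in replicate 2 alone. Excitatory neuron markers summed to 366 and 512 cRPKM in untreated libraries and 295 and 266 at 3 h. Interneuron markers summed to 99.1 and 207, then 79.7 and 127, and the part of either was not tested.

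Ciart (ENSMUSG00000038550, chromosome 3, 95878503 to 95882251, GRCm38) had no common direction. It stood at 3.35 and 3.58 cRPKM in untreated libraries, 3.05 and 3.56 at 0.5 h, and 2.31 and 4.23 at 3 h. The 3 h libraries held both the lowest and the highest of its 6 values. The log2 difference at 3 h was −0.04 ± 0.27 (adjusted p = 0.93, edgeR), −0.47 without 3 h replicate 2 and 0.30 without 3 h replicate 1. The 95% interval, 0.61-fold to 1.55-fold, covers moderate changes either way. Its direction at 3 h was thus undetermined.

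**Figure D3:**
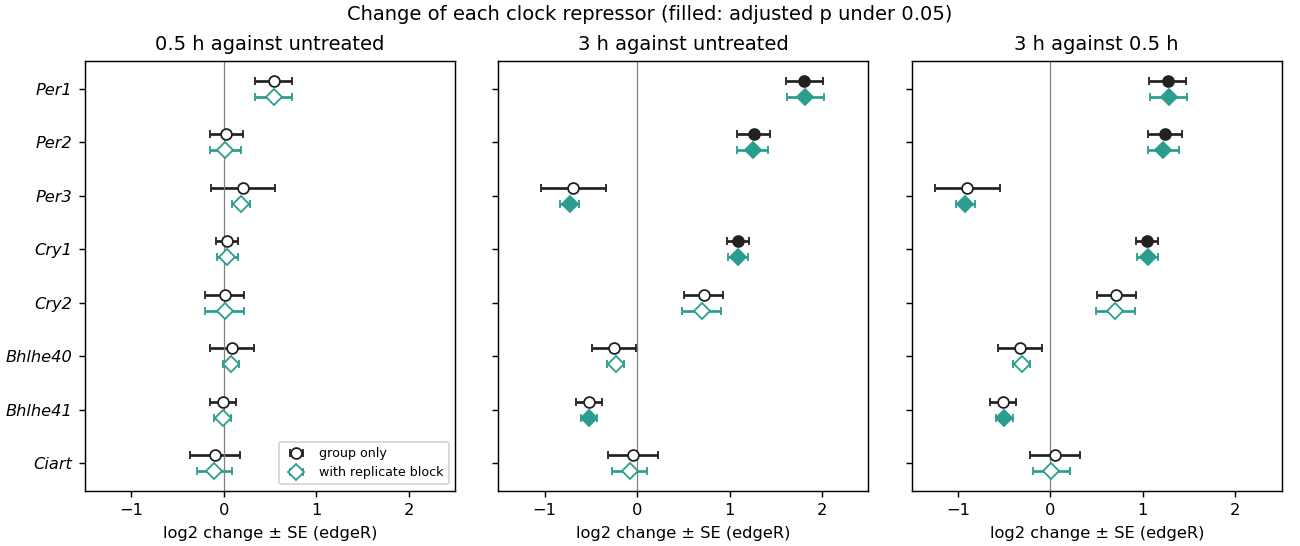
Log2 change ± SE of each clock repressor in the 3 comparisons, from edgeR fitted by group (circles) and with replicate number as a block (diamonds); filled symbols have an adjusted p under 0.05. At 3 h Per1, Per2 and Cry1 are filled in both fits, and Per3 and Bhlhe41 are filled with the block.

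The comparison of 3 h with 0.5 h asks which members changed between the early and the late time. Per1, Per2 and Cry1 were again the members called, 3 of 8 higher and 0 lower, beside 6.39% and 4.87% of all genes. Without adjustment, edgeR had 4 higher and 2 lower at p under 0.05, beside 15.9% and 14.9% of all genes. The 3 h libraries lay above those of 0.5 h for 4 members (21% of all genes) and below them for 2 (35.4% of all genes). Per1 was 2.98-fold and 1.75-fold higher than in the same-numbered 0.5 h library, with a log2 difference of 1.27 ± 0.20 (adjusted p = 0.023, edgeR). The difference was 1.24 ± 0.18 for Per2 (adjusted p = 0.018, edgeR) and 1.04 ± 0.12 for Cry1 (adjusted p = 0.013, edgeR). Most of the Per1 difference at 3 h, and nearly all of that of Per2 and Cry1, thus lay after 0.5 h. For Per3 the difference was −0.90 ± 0.35 (adjusted p = 0.15, edgeR), and −0.92 ± 0.10 with the block (adjusted p = 0.0066). That of Bhlhe41 was −0.51 ± 0.14 (adjusted p = 0.068, edgeR) and −0.50 ± 0.09 with the block (adjusted p = 0.019). With the block 3 members were higher and 2 lower, beside 15.6% of all genes each way. Leaving out 0.5 h replicate 1 or 2 leaves 1 library in that group. The edgeR calls of the 3 risers were then lost, as were those of all other genes. The log2 differences of the risers were then 1.08 or 1.51 for Per1, 1.23 or 1.27 for Per2 and 1.18 or 0.95 for Cry1. This comparison and that of 3 h with untreated neurons share the 3 h libraries.

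The makeup of the Period transcripts also differed between groups. Such shares depend on each other: a rise of Per1 alone lowers the shares of Per2 and Per3. Per1 made up 62.0% and 61.1% of the summed Per cRPKM in untreated libraries, 67.4% and 69.1% at 0.5 h, and 77.8% and 76.9% at 3 h. Per3 made up 15.1% and 17.7% in untreated libraries, 13.1% and 15.7% at 0.5 h, and 2.38% and 5.35% at 3 h. Per2 made up 22.9% and 21.2%, then 19.5% and 15.3%, then 19.8% and 17.8%. The Per2 share was thus lower at 3 h than in the same-numbered untreated library, although its level was higher. The Per1 share differed between groups by far more than between replicates, and the Per3 share at 3 h lay below all others. The summed Per level was 20.3 and 24.6 cRPKM in untreated neurons, 25.4 and 34.4 at 0.5 h, and 65.6 and 54.1 at 3 h. Shares within the Cryptochromes showed no common course: Cry2 made up 80% and 83.5% in untreated libraries and 81.6% and 72.4% at 3 h. With 2 libraries a group, an exact permutation test of such a share cannot reach the threshold, and none was run.

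**Figure D4:**
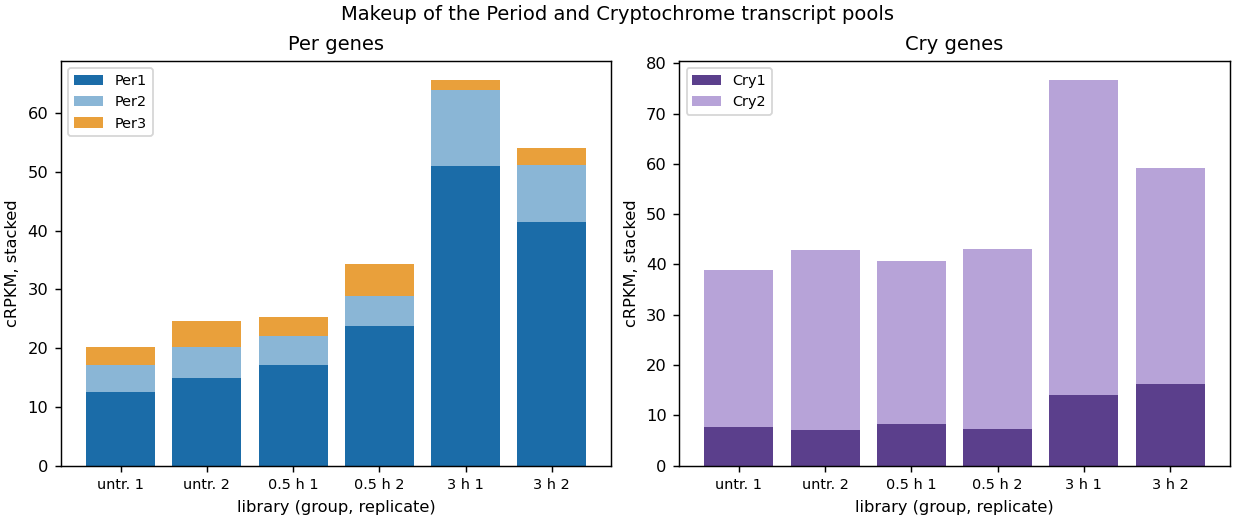
Stacked cRPKM of the Period genes (left) and Cryptochrome genes (right) in each library, bars starting at 0. The Period pool grows from 20.3 and 24.6 in untreated libraries to 65.6 and 54.1 at 3 h, mostly as Per1, while Per3 shrinks; the Cryptochrome pool stays mostly Cry2.

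The activators that the repressors act on changed in different directions at 3 h. Clock and Arntl (which encodes BMAL1) rose, and Npas2, whose product can stand in for CLOCK, fell. Clock stood at 10.2 and 11.3 cRPKM in untreated libraries, 10.6 and 11.1 at 0.5 h and 14.2 and 17.8 at 3 h. Arntl stood at 9.84 and 9.05, then 10.7 and 9.98, then 15.6 and 16.6, and Npas2 at 4.39 and 4.70, then 4.41 and 4.64, then 2.57 and 2.82. In all 3 genes the 3 h libraries lay apart from the other 4. Their log2 changes at 3 h were 0.62 ± 0.11, 0.82 ± 0.10 and −0.70 ± 0.10 (adjusted p = 0.023, 0.0096 and 0.014, edgeR). The call of Clock was lost in limma (adjusted p = 0.051 on log2(cRPKM + 0.1) and 0.056 on log2(cRPKM + 1)). It was also lost without 0.5 h replicate 1 or 2, and that of Npas2 without 0.5 h replicate 1. Without untreated replicate 1 or 2, which leaves 1 library in that group, the activator calls were lost, as were most calls over all genes. The log2 change was then 0.56 or 0.68 for Clock and 0.90 or 0.75 for Arntl. Arntl2, a scarce relative of Arntl at 1.18 to 1.72 cRPKM, had a difference of 0.30 ± 0.24 (adjusted p = 0.43). Summed over Clock, Arntl and Npas2, the activator level went from 24.5 and 25.1 cRPKM to 32.4 and 37.2. The sum over the 8 repressors went from 73.7 and 85.8 to 154 and 129.

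Of 14 genes for enzymes and partners that act on PER and CRY proteins, 3 rose and 0 fell at 3 h in edgeR, beside 8.71% and 6.84% of all genes, with a median log2 change of 0.15. Usp2, a deubiquitinase gene, rose most, from 7.19 and 9.01 cRPKM to 25.01 and 43.8 (log2 change 2.13 ± 0.28, adjusted p = 0.012, edgeR). Csnk1d, which encodes the kinase CK1δ that phosphorylates PER, rose by 0.49 ± 0.09 and the F-box gene Fbxw11 by 0.42 ± 0.10 (adjusted p = 0.024 and 0.043); Fbxw11 was not called in limma (adjusted p = 0.055 and 0.054), with library totals (0.062) or without 3 h replicate 2 (0.074). Without 0.5 h replicate 1 or 2 neither Fbxw11 (0.096 or 0.093) nor Csnk1d (0.069 or 0.067) was called. With the block 6 of the 14 rose and 2 fell, beside 18.6% of all genes each way. Of 9 genes of the stabilising loop, which sets the level of Arntl, 3 rose and 0 fell in edgeR, beside the same shares of all genes (8.71% and 6.84%), with a median of 0.24. Nfil3, the D-box repressor gene, rose from 14.5 and 11.3 cRPKM to 101 and 71.4 (2.80 ± 0.29, adjusted p = 0.0075). The nuclear receptor genes Rorb and Rora, whose products activate Arntl, rose by 2.54 ± 0.25 and 0.83 ± 0.14 (adjusted p = 0.0073 and 0.019), and limma did not call Rora (adjusted p = 0.057 and 0.061). The block gave 4 higher and 1 lower, beside 18.6% each way. Dbp, a D-box activator gene, is described because its values drew attention. It stood at 7.72 and 13.7 cRPKM in untreated libraries and 2.59 and 4.96 at 3 h. Its log2 difference was −1.46 ± 0.42 by group (adjusted p = 0.071) and −1.46 ± 0.09 with the block (adjusted p = 0.0022). Like Per3, Dbp was higher in the replicate 2 library of every group. Together with the activators, 8 of these 27 genes rose and 1 fell by edgeR, beside 8.71% and 6.84% of all genes. With the block 12 rose and 4 fell, beside 18.6% of all genes each way, and the share lower was no larger than over all genes. Leaving out untreated replicate 1 or 2 leaves 1 library in that group. The edgeR calls of the 27 genes were then lost, as were most calls over all genes. The median log2 change of the 27 was then 0.22 or 0.21, against 0.24 with all 6 libraries. Without 0.5 h replicate 1, 5 were called.

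**Figure D5:**
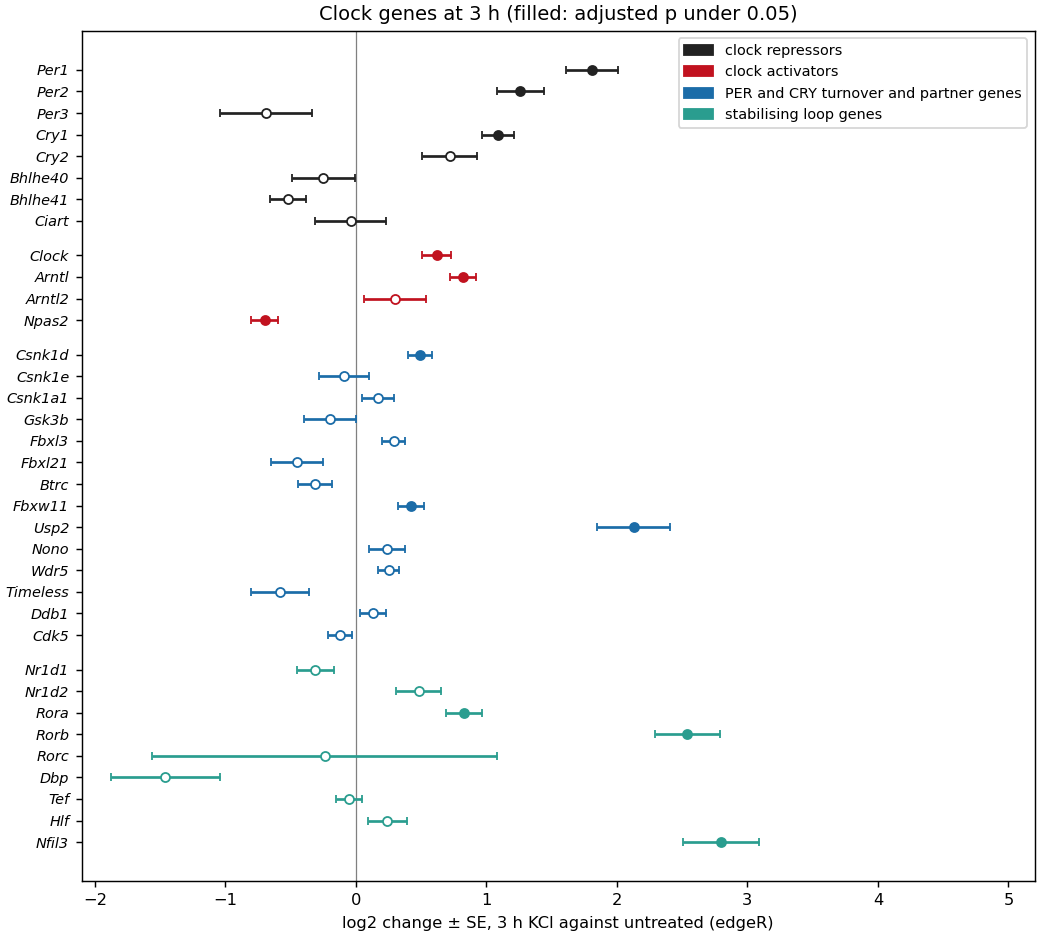
Log2 change ± SE at 3 h against untreated neurons (edgeR by group) for the 8 repressors and 27 other clock genes, coloured by list; filled symbols have an adjusted p under 0.05. Per1, Per2 and Cry1 lie between 1.09 and 1.81, below Nfil3, Rorb and Usp2 and above Clock and Arntl; Npas2 is the filled symbol on the left.

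The genes with the most similar course to each member were sought among 12176 genes with a symbol and a mean of at least 1 cRPKM. Likeness was the root mean square difference of log2(cRPKM + 0.1) over the 6 libraries, each gene centred on its mean. Closest to Per1 were Rgs2 (0.11), Ppp1r15a (0.13) and Tiparp (0.14). Closest to Per2 were Tsc22d2 (0.06), Kdm7a (0.08) and Clba1 (0.08), and closest to Cry1 were Cdca4, Crkl and Ppp2r1b (0.04 each). Those of Cry2 were Lrrtm1 (0.04), St8sia4 (0.07) and Mreg (0.07), and those of Per3 were Crocc (0.08), Als2cl (0.08) and Ccdc191 (0.09). For Bhlhe40 they were Tcea2, Cpt1c and Rogdi (0.04 each), for Bhlhe41 Cul9 (0.02), Rad51c (0.03) and Usp11 (0.03), and for Ciart Rpp38, Slc25a26 and Sbno2 (0.06 each). By the same measure Per2 was closer to Cry1 (0.23) and Cry2 (0.25) than to Per1 (0.28), and the closest pair of members was Bhlhe40 and Bhlhe41 (0.17). Per1 and Per3 were the farthest apart (1.15). With 6 libraries many genes share such a course, and no test goes with these values.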

How the data were processed

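Per the submitters' processing notes, reads were aligned with Bowtie to mm9; their versions, the annotation and the handling of multiply matching reads are not stated in those notes. Each deposited file lists 22667 genes with the authors' RPKM (named cRPKM) and a whole-number read count, not normalized; 1114 genes have no value. Over 7690 genes with large counts, the count divided by the RPKM followed the library totals within 0.381%. Symbols came from GENCODE M21.

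Counts were tested with edgeR 4.0.16 (R 4.3.3): TMM, filterByExpr with a minimum count of 10 (15895 genes), and the quasi-likelihood test on all 6 libraries by group. Counts simulated to check it had less spread than these libraries and no replicate effect, so that check does not carry over to them. Alternatives used DESeq2 1.42.0, limma 3.58.1 on log2(cRPKM + 0.1) or log2(cRPKM + 1), library totals, other filters and left-out libraries. Intervals for members are the change ± its SE times the t quantile, at the fit's degrees of freedom, that leaves 95% between both limits.

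Differences between replicates 1 and 2 correlated over genes between groups (r = 0.77, 0.56 and 0.59), so the numbers were read as a pairing; this comes from the data, not the labels. Named genes are all members and activators, called genes of the other clock lists (up to 4 per list and comparison), and the 3 closest profiles per member. Members and lists were chosen with earlier results of these data known.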

Additional observations from a re-analysis of the deposited data

Results flagged for a closer look

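For 3 members the KCl effect differed between the 0.5 h and 3 h groups, by the direct test of 3 h against 0.5 h in edgeR. The log2 difference was 1.27 for Per1, 1.24 for Per2 and 1.04 for Cry1, and both 3 h libraries were above both 0.5 h libraries for each. Groups of 2 libraries are too small for a search for single outlying samples.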

How the results depend on the processing

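The calls of Per1, Per2 and Cry1 at 3 h held under library totals, other filters, DESeq2, limma and the replicate block, and were lost when a library of the reference group was left out. That leaves 1 library in the group, assumed to vary like the other groups. Most calls over all genes against untreated were lost as well, and all of those against 0.5 h. The loss was thus not particular to these members. The changes of Per1, Per2 and Cry1 stayed about as large, but those of some other members did not. Without untreated replicate 1 or 2 the log2 difference from untreated at 3 h was −0.92 or −0.43 for Per3 (−0.69 with all libraries). For Bhlhe40 it was −0.46 or −0.01 (−0.25 with all libraries). Of the 8 repressors at 3 h against untreated, 3 were called in edgeR, 5 in DESeq2, 5 with the replicate block and 6 with both, and 0 to 4 with 1 library left out. Against 0.5 h, 3 were called in edgeR, 6 in DESeq2, 5 with the block, 6 with both, and 0 to 4 with 1 library left out. The lowest counts came without an untreated or a 0.5 h library, the highest without 3 h replicate 2, which let Cry2 pass in both comparisons. For the other clock genes the block, alone and in DESeq2, gave 16 and 16 against untreated (9 in edgeR) and 14 and 15 against 0.5 h (9 in edgeR); leaving out 1 library gave 0 to 13 and 0 to 11.

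Over all genes at 0.5 h, 6 were called in edgeR, 37 in DESeq2, 13 without a filter, 10 in limma on log2(cRPKM + 0.1), 13 with the block, 51 in DESeq2 with the block, and 0 to 6 with 1 library left out. At 3 h the counts were 2472 in edgeR, 4136 in DESeq2, 5918 with the block, 6042 with both, and 38 to 3739 with 1 library left out. Against 0.5 h they were 1789, 3535, 4961, 5223, and 0 to 2915. Library totals turned the split at 3 h from 1384 higher and 1088 lower to 1115 and 1340. The genes tested were 15895 in edgeR, with or without the block, and in limma. They were 19488 in DESeq2 and without a filter, and 16139 to 16196 with 1 library left out. The counts for repressors and other clock genes at 3 h, given above, rose with those of all genes in DESeq2 and with the block.

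Sign changes were in values that passed no test. Bhlhe41 at 0.5 h was 0.01 with library totals and in both limma fits, and Ciart at 3 h against 0.5 h was −0.02 with library totals and −0.07 and −0.05 in limma. With 1 library left out, the log2 values at 0.5 h ran from −0.04 to 0.10 for Per2, −0.16 to 0.50 for Per3, −0.08 to 0.15 for Cry1, −0.08 to 0.10 for Cry2, −0.22 to 0.34 for Bhlhe40 and −0.16 to 0.12 for Bhlhe41. For Ciart they ran from −0.47 to 0.30 at 3 h and −0.38 to 0.39 against 0.5 h. Arntl2 and Arc at 3 h against 0.5 h ran from −0.10 to 0.41 and −0.42 to 0.02, and Bdnf at 0.5 h from −0.33 to 0.42. The cause of these differences was not tested.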
